A study of Mus musculus with 12 samples.

Results

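The transcripts described here are 10 genes of the Nrf2 and oxidative stress defence system, taken by symbol from a count table of murine bone marrow-derived macrophages (BMDMs). They are the regulator pair Nfe2l2 (which encodes Nrf2) and Keap1, and 8 genes for enzymes and a transporter that handle oxidants: Hmox1, Nqo1, Gclm, Gclc, Slc7a11, Txnrd1, Srxn1 and Sod2. The table held 24421 gene symbols, of which 11468 passed the filter on low counts, and all 10 genes were among them. BMDMs came from wild-type C57BL/6 mice, cultured over 5 days with 100 ng/mL M-CSF and given new medium on day 3. For 4 hours they then received ovalbumin alone (Ova) or ovalbumin bound by IgG in an immune complex (IC), the latter to engage Fcγ receptors, with I-BET151 at 5.0 µM (iBET, a small molecule that keeps BET proteins off acetylated histones) or with the solvent DMSO, labelled 5%. The order of drug and stimulus differs between the labels, which give them together, and the study's text, which puts the drug first. The 4 groups (DMSO Ova, DMSO IC, iBET Ova and iBET IC) had 3 libraries each, 1 from each of 3 animals that the labels name A, B and C, so every animal is in all groups.

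Nrf2 is a transcription factor that is made and destroyed continuously in resting cells, because Keap1 presents it to a ubiquitin ligase. Oxidants and electrophiles modify cysteines of Keap1, Nrf2 then accumulates, pairs with a small Maf protein and binds antioxidant response elements, for which the repressor Bach1 competes. Its classical targets make glutathione, recycle thioredoxin, reduce quinones and break down haem, and in macrophages these systems also limit the oxidants that the cells make themselves. Sod2, the mitochondrial superoxide dismutase, is also a known NF-kB target. Since Nrf2 is regulated mainly as a protein, transcript levels of Nfe2l2 and Keap1 do not measure its activity.

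Sequences upstream of the transcription start are shown for 4 of the genes, because these windows held copies of the elements that Nrf2 and neighbouring factors are known to bind and because the genes differed in their response. RefSeq (GRCm38.p6) gave 250-base windows before the start for 8 of the 10 genes, and none for Hmox1 and Gclc. On both strands 4 patterns were searched. They were the antioxidant response element core TGACNNNGC, the Nrf2-preferred element TGANTCAGC, the AP-1 element TGANTCA and the Atf4-type element TGATGCAA. The Nrf2-preferred element contains the AP-1 element, and a match to it need not match the core. Capitals mark each match, and the bases run 5′ to 3′ from 150 to 31 before the start. The windows lie at chr2:152105374-152105493 (plus strand) for Srxn1, chr3:122245407-122245526 (plus) for Gclm, chr10:82859056-82859175 (plus) for the second of 3 listed starts of Txnrd1, and chr3:50443644-50443763 (minus) for Slc7a11.
Srxn1: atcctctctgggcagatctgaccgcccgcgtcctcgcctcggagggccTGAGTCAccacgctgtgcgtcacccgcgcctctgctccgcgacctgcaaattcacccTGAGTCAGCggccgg
Gclm: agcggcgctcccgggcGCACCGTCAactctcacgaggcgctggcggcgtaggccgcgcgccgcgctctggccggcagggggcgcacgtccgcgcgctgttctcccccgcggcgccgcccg
Txnrd1: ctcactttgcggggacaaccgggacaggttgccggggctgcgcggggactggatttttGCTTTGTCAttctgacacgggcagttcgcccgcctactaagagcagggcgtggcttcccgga
Slc7a11: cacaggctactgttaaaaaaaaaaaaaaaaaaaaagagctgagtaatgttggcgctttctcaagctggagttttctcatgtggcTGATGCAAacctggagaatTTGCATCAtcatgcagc

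In the Srxn1 window, the Nrf2-preferred element stood 45 to 37 bases before the start. A separate AP-1 element stood 102 to 96 bases before the start. The core stood 134 to 126 bases before the start of Gclm and 92 to 84 bases before that of Txnrd1, in both on the reverse strand. A further core, TGACTCCGC, lay 240 to 232 bases before the start of Nfe2l2, outside the length shown for the others. Slc7a11 had neither the core nor the Nrf2-preferred element. Instead it held the Atf4-type element as a facing pair, 66 to 59 and 47 to 40 bases before the start. No match was found in the windows of Nqo1, Keap1 and Sod2 or in the other windows of Txnrd1. Over 32851 RefSeq windows of the same length, 10.2% held the core, 1.02% the Nrf2-preferred element, 6.75% the AP-1 element and 0.791% the Atf4-type element. These matches describe letters in short windows and do not show binding.

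Libraries held 7549849 to 17387639 counts. In 11 of them the ribosomal precursor Rn45s took 1.41 to 7.83% of the counts, but in DMSO Ova of mouse A it took 77.4%, which left 1768133 other counts against 7247830 to 16899110 elsewhere. In that library Nqo1 rested on 3 counts and Slc7a11 on 6, so values that use the DMSO Ova group are also given without it where a call changed. The cells carried macrophage transcripts: the 7 markers Cd68, Csf1r, Adgre1, Itgam, Lyz2, Mertk and Fcgr1 were detected in every library and summed to 6178 to 7311 CPM (counts scaled to 1000000 after TMM normalization) in DMSO Ova, 5969 to 6790 in DMSO IC, 6690 to 7948 in iBET Ova and 7129 to 7913 in iBET IC. The marker sum was thus higher with iBET in IC without overlap, and its part in the results was not tested. Most of that rise was in Lyz2, which averaged 3030 CPM in DMSO IC and 4026 in iBET IC. Adgre1, Itgam and Mertk were also higher, whereas Cd68 (913 and 911 CPM), Csf1r (945 and 928) and Fcgr1 (176 and 106) were not. Summed markers of other cells stayed between 7.70 and 50.4 CPM for neutrophils (6 of 7 markers were in the table), at most 1.45 CPM for dendritic cells, 0.337 CPM for lymphocytes and 1.32 CPM for stromal cells, and the 6 erythroid and mast cell markers were at 0 in all 12 libraries. In bulk RNA, fewer cells with a transcript and less transcript per cell cannot be told apart.

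To ask how BET inhibition bears on these genes in cells that had not met IC, iBET was compared with DMSO in Ova. Nfe2l2, Hmox1, Gclc, Txnrd1, Srxn1 and Sod2 were higher with iBET, by 1.54 to 2.91 fold, and passed the test (edgeR quasi-likelihood, adjusted p under 0.05). Keap1, Nqo1, Gclm and Slc7a11 did not pass. These 6 of 10 genes stand against 31.3% of all genes called in the comparison, or 17.1% in this direction. Their median log2 fold change was 0.62 for all 10 together, beside 0.019 over all genes tested.

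The same 6 genes rose with iBET in IC-stimulated cells, by 1.21 to 3.14 fold, where Keap1 and Slc7a11 also fell. Thus 8 of 10 genes were called, 6 higher and 2 lower, against 34.8% of all genes (19.0% higher and 15.8% lower). The 10 genes had a median of 0.66 on the log2 scale, beside -0.0037 over all genes. Gclm and Nqo1 were not called.

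**Figure D1:**
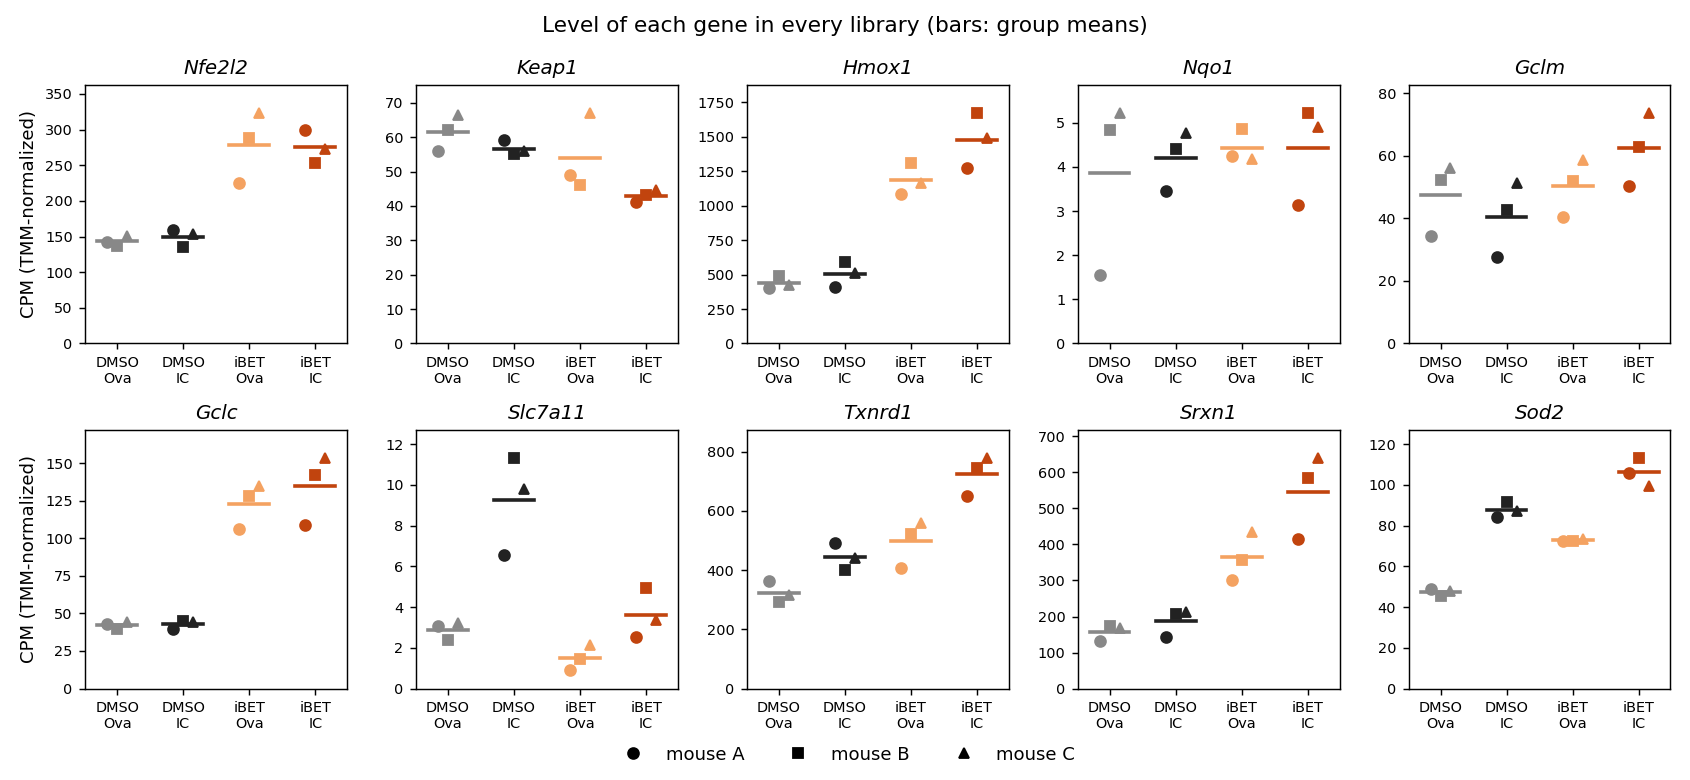
Level of each of the 10 genes in every library, as TMM-normalized CPM on a linear axis from 0, with 1 panel a gene. Symbols mark mice A, B and C, colours mark the groups, and bars mark group means; Hmox1, Gclc, Srxn1 and Nfe2l2 lie higher in all iBET libraries than in any DMSO library, whereas Slc7a11 peaks in DMSO IC.

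Of the regulators, Nfe2l2 stood at 142, 136 and 151 CPM in DMSO Ova (mice A, B and C in this and the following sentences) and at 159, 135 and 154 in DMSO IC. With iBET it stood at 225, 288 and 324 CPM in Ova and at 300, 253 and 273 in IC. Every iBET library lay above every DMSO library. The log2 fold change with iBET was 0.96 (SE 0.13, adjusted p 0.000185) in Ova and 0.88 (SE 0.13, adjusted p 0.000272) in IC.

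Keap1, the adaptor that marks Nrf2 for destruction, was called in IC but not in Ova. It measured 56.0, 62.0 and 66.4 CPM in DMSO Ova and 48.8, 46.2 and 67.1 in iBET Ova, where mouse C changed by 0.016 on the log2 scale and the groups overlapped (log2 fold change -0.19, SE 0.13, adjusted p 0.294). In IC it measured 59.1, 55.1 and 55.9 CPM with DMSO and 41.0, 43.2 and 44.7 with iBET, without overlap (-0.40, SE 0.13, adjusted p 0.0325). That call was lost when any of the 6 libraries of the 2 IC groups was left out, with adjusted p between 0.0549 and 0.103. In Ova, 1 library decided the call: without iBET Ova of mouse C the value was -0.38 (adjusted p 0.0240), and without that of mouse B it was -0.092 (adjusted p 0.681).

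The level of Nfe2l2 relative to Keap1 was also taken within each library. The ratio of their CPM, which is not corrected for length and so is compared only between groups, was 2.34 ± 0.179 (SD, n = 3) in DMSO Ova and 5.22 ± 0.881 in iBET Ova. It was 2.63 ± 0.157 in DMSO IC and 6.42 ± 0.778 in iBET IC. Neither pair of groups overlapped, and the exact permutation test on the log2 ratio, two-sided, gave p = 0.1 for each, the smallest p that 3 against 3 libraries allow (0.16 after Benjamini-Hochberg adjustment over 8 comparisons of ratios, which were chosen after the values were seen).

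The glutathione genes moved apart from each other. Gclc encodes the catalytic subunit of glutamate-cysteine ligase, the rate-limiting enzyme of glutathione synthesis, and Gclm its modifier subunit. Slc7a11 is the light chain of the cystine transporter that brings in the precursor.

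Gclc had the largest fold change of the 10 genes in both iBET comparisons. It measured 43.1, 39.9 and 44.1 CPM in DMSO Ova and 39.4, 45.0 and 44.1 in DMSO IC, but 106, 128 and 135 in iBET Ova and 109, 142 and 154 in iBET IC. No library of the iBET groups came near those with DMSO. The log2 fold change was 1.54 (SE 0.14, adjusted p 8.30e-06) in Ova and 1.65 (SE 0.14, adjusted p 3.67e-06) in IC.

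Gclm, the partner of Gclc, was not called in either comparison. Its levels were 34.4, 52.4 and 56.1 CPM in DMSO Ova and 40.5, 51.9 and 58.6 in iBET Ova, with full overlap and a log2 fold change of 0.044 (SE 0.25, adjusted p 0.915). In IC they were 27.6, 42.8 and 51.4 CPM with DMSO and 50.4, 62.9 and 73.8 with iBET. The IC groups overlapped because mouse A was low in both, yet every mouse was higher with iBET, by 0.86, 0.55 and 0.52 on the log2 scale. The call depended on the pairing: 0.62 (SE 0.24, adjusted p 0.0689) in the fit without mice, and 0.65 (adjusted p 0.00028) with mouse as a block. Without DMSO IC of mouse C or without mouse A, the fit without the block also called it (0.83, adjusted p 0.0309, and 0.53, adjusted p 0.00814).

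The CPM ratio of Gclc to Gclm went from 0.934 ± 0.277 (SD, n = 3) in DMSO Ova to 2.46 ± 0.154 in iBET Ova and from 1.11 ± 0.289 in DMSO IC to 2.17 ± 0.0882 in iBET IC. Neither pair overlapped, and the exact permutation test gave p = 0.1 for each, its smallest value (0.16 adjusted). The ratio was above 2 in every library with iBET and below 1.5 in every library with DMSO.

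Slc7a11 went the other way. In IC it fell from 6.56, 11.3 and 9.82 CPM with DMSO to 2.51, 4.94 and 3.36 with iBET, which left no overlap (log2 fold change -1.37, SE 0.31, adjusted p 0.00451). In Ova it measured 3.08, 2.38 and 3.23 CPM with DMSO and 0.926, 1.43 and 2.14 with iBET, again without overlap, but the counts behind these values were only 6 to 39 per library and the test was not passed (-0.96, SE 0.39, adjusted p 0.0812). That value was -1.29 (adjusted p 0.0437) without iBET Ova of mouse C and -0.66 (adjusted p 0.269) without that of mouse A. Slc3a2, the heavy chain with which Slc7a11 forms the transporter, moved in the opposite direction: its log2 fold change with iBET was 0.60 (adjusted p 0.000779) in Ova and 0.65 (adjusted p 0.000369) in IC. Slc3a2 also serves other amino acid transporters.

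Txnrd1 and Srxn1 act on protein thiols, the first by reducing thioredoxin with NADPH and the second by restoring overoxidized peroxiredoxins. Srxn1, whose window held the Nrf2-preferred element, measured 131, 173 and 168 CPM in DMSO Ova and 302, 357 and 433 in iBET Ova. In IC it measured 142, 208 and 213 CPM with DMSO and 414, 584 and 640 with iBET. All 6 iBET libraries exceeded all 6 DMSO libraries, and the log2 fold change was 1.20 (SE 0.21, adjusted p 0.000912) in Ova and 1.54 (SE 0.21, adjusted p 0.000142) in IC.

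Txnrd1 changed less. It measured 363, 293 and 315 CPM in DMSO Ova against 408, 524 and 561 in iBET Ova, and 490, 400 and 441 in DMSO IC against 649, 746 and 780 in iBET IC. The groups did not overlap in either comparison, although mouse A moved least, by 0.17 in Ova and 0.41 in IC, where mice B and C moved by 0.82 to 0.90. The log2 fold change was 0.62 (SE 0.14, adjusted p 0.00449) in Ova and 0.71 (SE 0.14, adjusted p 0.00172) in IC. Leaving out mouse B gave an adjusted p of 0.133 (Ova) and 0.0733 (IC), and leaving out mouse C gave 0.0957 (Ova).

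Hmox1 encodes haem oxygenase 1, which degrades haem to biliverdin, iron and carbon monoxide, and was the most abundant of the 10 transcripts per kilobase in every group. It measured 403, 493 and 421 CPM in DMSO Ova and 1082, 1307 and 1165 in iBET Ova. In IC it measured 409, 591 and 513 CPM with DMSO and 1274, 1676 and 1491 with iBET. The mice were close to each other in this change, at 1.41 to 1.47 on the log2 scale in Ova and 1.50 to 1.64 in IC. The fitted log2 fold change was 1.43 (SE 0.15, adjusted p 2.88e-05) in Ova and 1.55 (SE 0.15, adjusted p 1.32e-05) in IC.

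Nqo1, a quinone reductase often used as a readout of Nrf2, was low throughout. It measured 1.54, 4.83 and 5.22 CPM in DMSO Ova, 3.45, 4.40 and 4.77 in DMSO IC, 4.24, 4.85 and 4.17 in iBET Ova, and 3.15, 5.23 and 4.91 in iBET IC. All groups overlapped, and the log2 fold change with iBET was -0.0054 (SE 0.29, adjusted p 0.991) in Ova and 0.054 (SE 0.29, adjusted p 0.904) in IC. It rested on 3 to 63 counts per library, and its SE was as large as the change seen for Sod2 in IC.

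Sod2 rose with iBET in both settings. It measured 48.8, 45.7 and 48.2 CPM in DMSO Ova and 72.6, 72.6 and 73.3 in iBET Ova, a log2 fold change of 0.62 (SE 0.085, adjusted p 0.000186). In IC it measured 84.4, 91.8 and 87.2 CPM with DMSO and 106, 113 and 99.6 with iBET, a smaller change of 0.28 (SE 0.082, adjusted p 0.0203) that still left no overlap. The IC value lost its call without DMSO IC of mouse A or C or iBET IC of mouse A or B (adjusted p of 0.0539 to 0.0995), and without any 1 of the mice (up to 0.195). With all 12 libraries, it was also lost with no filter on low counts (0.28, adjusted p 0.0508) and with only the IC groups fitted (0.27, adjusted p 0.0736).

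**Figure D2:**
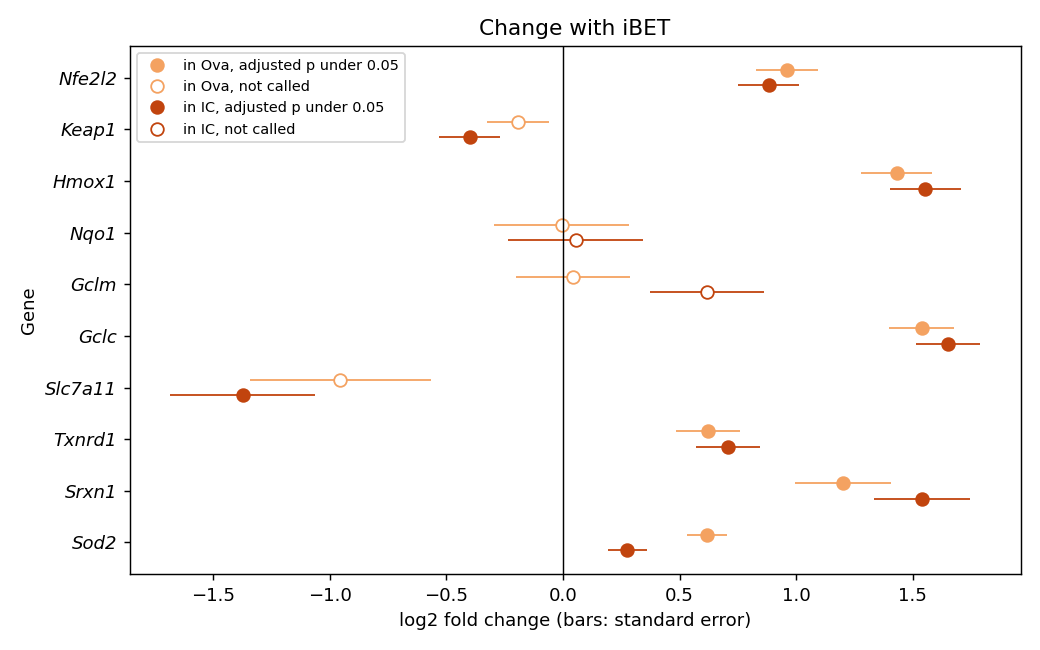
Log2 fold change with iBET for each gene, in Ova (light) and in IC (dark), from the edgeR fit on all 12 libraries; bars are standard errors and filled points had an adjusted p under 0.05. Gclc, Hmox1 and Srxn1 lie between 1.20 and 1.65, Nqo1 lies at 0, and Slc7a11 lies at -0.96 and -1.37.

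Groups without overlap numbered 7 of the 10 genes for iBET in Ova (45.1% of all genes) and 8 in IC (48.6%). Leaving out the Rn45s-rich library kept 6 genes called in Ova, with log2 fold changes of 0.91 for Nfe2l2, 1.32 for Hmox1, 1.50 for Gclc, 0.66 for Txnrd1, 1.05 for Srxn1 and 0.58 for Sod2.

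To ask how Fcγ receptor engagement bears on the same genes, IC was compared with Ova in DMSO-treated cells. Sod2 and Slc7a11 rose, and no other of the 10 genes was called. These 2 genes stand against 1.22% of all genes called, or 0.732% in this direction. The median over the 10 genes was 0.13 on the log2 scale, beside -0.010 over all genes. These fits share the DMSO Ova libraries with the iBET comparison above, so each gene's 2 values are not independent.

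Sod2 rose from 45.7 to 48.8 CPM in DMSO Ova to 84.4 to 91.8 in DMSO IC. The log2 fold change was 0.89 (SE 0.085, adjusted p 0.000676), and each mouse moved by 0.79 to 1.00. Slc7a11 rose from at most 3.23 CPM to at least 6.56 CPM, a log2 fold change of 1.69 (SE 0.34, adjusted p 0.0331), with 1.05, 2.17 and 1.55 in mice A, B and C. Without the Rn45s-rich library the size for Slc7a11 was the same, 1.69, with an adjusted p of 0.0553, and leaving out single libraries lost that call in 7 of 12 fits (adjusted p up to 0.187). Without mouse B or C none of the 10 genes was called, with adjusted p for Sod2 of 0.285 and 0.069. Those fits called 0 of 11484 and 10 of 11553 genes over all, and the log2 fold change of Sod2 was 0.82 and 0.90.

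Txnrd1 was the other gene whose groups did not overlap, with 363, 293 and 315 CPM in DMSO Ova and 490, 400 and 441 in DMSO IC, but its log2 fold change of 0.46 (SE 0.14) had an adjusted p of 0.158 (0.0430 without mouse A). Over all genes, 15.3% did not overlap in this comparison. Nfe2l2 (0.058), Keap1 (-0.13), Hmox1 (0.20), Nqo1 (-0.080), Gclm (-0.27), Gclc (0.017) and Srxn1 (0.25) had adjusted p between 0.717 and 0.996. None of these 7 genes had a change with IC alone that was detectable at this spread.

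In iBET-treated cells, the comparison of IC with Ova called Sod2 alone, against 0.349% of all genes (0.314% higher and 0.0349% lower). Sod2 measured 72.6 to 73.3 CPM in iBET Ova and 99.6 to 113 in iBET IC (log2 fold change 0.55, SE 0.083, adjusted p 0.0118). Leaving out any of 5 single libraries, all of them from the iBET groups, ended that call, with adjusted p up to 0.0917, as did leaving out mouse B (1.00) or C (0.318). Without mouse B or C, 0 of 11484 and 9 of 11553 genes were called over all, and the log2 fold change of Sod2 was 0.49 and 0.60. Slc7a11 measured 0.926, 1.43 and 2.14 CPM in iBET Ova and 2.51, 4.94 and 3.36 in iBET IC, without overlap, and did not pass (1.27, SE 0.36, adjusted p 0.278).

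Txnrd1 likewise stood higher in all 3 iBET IC libraries than in any iBET Ova library (0.54, SE 0.14, adjusted p 0.183), and Keap1 stood lower (-0.33, SE 0.13, adjusted p 0.566). Txnrd1 was called here by DESeq2 (0.55, adjusted p 0.0207) and by edgeR without mouse A (0.52, adjusted p 0.0202). With Sod2 and Slc7a11, groups of 4 genes did not overlap, beside 18.9% of all genes. Srxn1 overlapped between groups but was higher with IC in every mouse, by 0.45, 0.71 and 0.56. It was not called without mice in the fit (0.58, SE 0.20, adjusted p 0.444) and was called with mouse as a block (0.57, adjusted p 0.00879) or without mouse A (0.66, adjusted p 0.0134). Here the 10 genes had a median of 0.31 on the log2 scale, beside -0.011 over all genes.

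**Figure D3:**
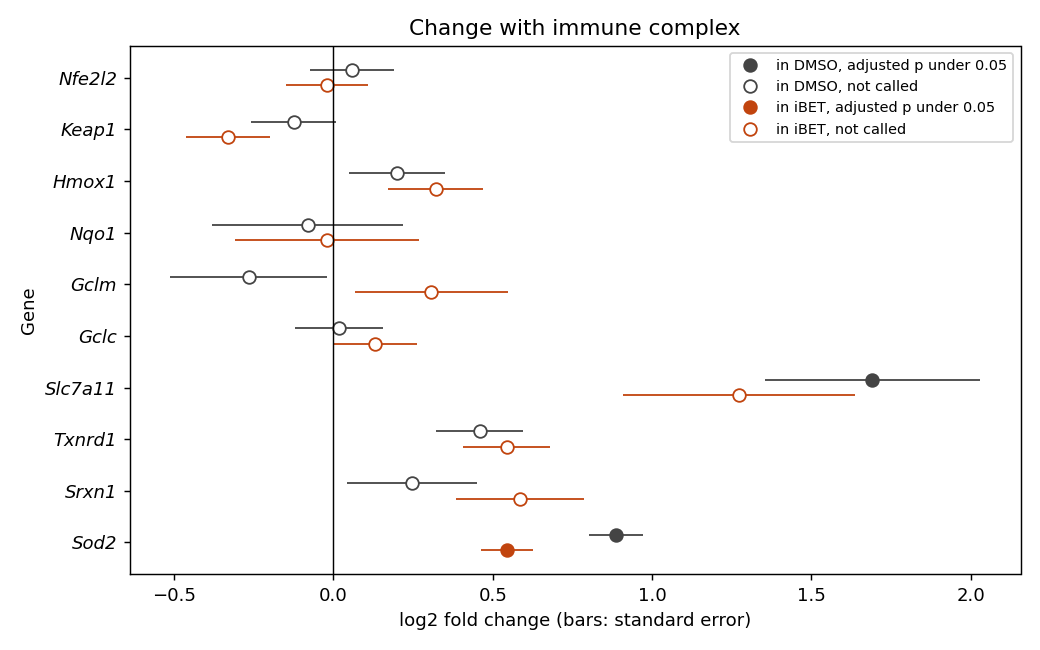
Log2 fold change with IC for each gene, in DMSO (dark grey) and in iBET (orange), from the same fit; bars are standard errors and filled points had an adjusted p under 0.05. Sod2 is called in both arms at 0.89 and 0.55, Slc7a11 is called in DMSO at 1.69, and the points of Nfe2l2, Gclc and Nqo1 lie between -0.080 and 0.13.

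Whether the response to IC differed with iBET was tested by the interaction, the IC change in iBET minus that in DMSO. None of the 10 genes was called, beside 0% of all genes, where edgeR gave an unadjusted p under 0.05 for 292 of 11468 genes and for 1 of the 10, and DESeq2 called 4 genes overall and none of the 10. The 1 gene was Sod2, with -0.34 (SE 0.12, unadjusted p 0.0131, adjusted p 1.00) and a smaller IC response with iBET in each mouse (-0.24, -0.36 and -0.41). For Slc7a11 the interaction was -0.42 with an SE of 0.51 (unadjusted p 0.423, adjusted p 1.00). Gclm had the largest positive value (0.57, SE 0.34, unadjusted p 0.123).

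Across conditions the genes thus took different courses. Gclc and Hmox1 had the most alike profiles, with a root mean square difference of 0.18 in centred log2 CPM over the 12 libraries, and Srxn1 was closest to Hmox1 at 0.19. Txnrd1 was closest to Sod2 at 0.24, and Nfe2l2 was closest to Txnrd1 at 0.30. Slc7a11 was remote from all, with Sod2 nearest at 0.91. Among all other tested genes, those most like Nfe2l2 were Ep400 (0.11), Cep85l (0.13), Ddhd1 (0.13), Zfp866 (0.14) and Mafk (0.14). Of these, Mafk encodes a small Maf partner of Nrf2. It averaged 31.5 CPM in DMSO Ova, 37.8 in DMSO IC, 68.9 in iBET Ova and 64.5 in iBET IC.

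Levels of different genes were compared as CPM per kilobase of exonic length (the union of annotated exons, which understates genes with long alternative exons). In DMSO Ova, Hmox1 led with 251 (230 to 281), then Srxn1 with 55.8 (46.6 to 61.2), Txnrd1 with 45.6 (41.3 to 51.2) and Nfe2l2 with 37.7 (35.9 to 39.9). Keap1 (13.1), Gclc (11.3), Gclm (7.57), Sod2 (4.75), Nqo1 (2.49) and Slc7a11 (0.208) followed. Of neighbours in that order, only Srxn1 and Txnrd1 overlapped in their ranges. In iBET IC the first 4 places were unchanged at 845, 194, 102 and 72.5 CPM per kilobase, but Gclc (35.8) had moved up to the place below Nfe2l2 and Keap1 (9.16) down to that above Nqo1, where the ranges of Sod2 (10.6), Gclm (9.91) and Keap1 overlapped from neighbour to neighbour.

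The genes lie on 6 chromosomes of GRCm38 (mm10), with positions from GENCODE vM21. Nfe2l2 spans chr2:75675513-75704641 (minus strand) and Srxn1 chr2:152105516-152111376 (plus). Gclm spans chr3:122245557-122270732 (plus) and Slc7a11 chr3:49892526-50443614 (minus). Hmox1 spans chr8:75093621-75100589 (plus) and Nqo1 chr8:107388225-107403206 (minus). Keap1 spans chr9:21229730-21239361 (minus) and Gclc chr9:77754535-77794485 (plus). Txnrd1 spans chr10:82833951-82897712 (plus) and Sod2 chr17:13006846-13040063 (plus). Keap1, Gclm, Slc7a11 and Txnrd1 overlap annotated genes of the opposite strand, and Nfe2l2, Gclm, Slc7a11 and Txnrd1 others of the same strand, so some of their reads may have been shared or dropped, since the use of strand in counting was not stated.

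To place the 10 genes among their surroundings, 58 other genes of 7 related lists were examined, of which 55 passed the filter (Gsta4, Mgst2 and Sod3 did not). With iBET, 11 were higher and 3 lower in Ova, and 17 higher and 3 lower in IC. These 14 and 20 of 55 genes stand beside 31.3% and 34.8% of all genes called. Their median on the log2 scale was 0.20 in Ova and 0.23 in IC.

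Of 8 partners and regulators of Nrf2, 2 rose in Ova and 3 in IC and none fell. Over all genes, 31.3% were called in Ova and 34.8% in IC (17.1% and 19.0% higher). Counts of this and the following lists were not tested against these shares. Mafk changed by 1.10 (SE 0.12) in Ova and 0.77 (SE 0.11) in IC, and Nfe2l1, a relative of Nrf2, by 0.60 and 0.48. Bach1, the repressor that competes at the same elements, rose in IC (0.58, SE 0.10, adjusted p 0.000836) and did not pass in Ova (0.27, adjusted p 0.0658). Maff, another small Maf gene, was the 1 gene of the 55 that changed with IC in DMSO (1.14, SE 0.24, adjusted p 0.0443), beside 1.22% of all genes, and none was called with IC in iBET.

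Among 13 tested genes of glutathione synthesis and use, 3 rose and 1 fell in Ova, and 4 rose and 1 fell in IC. Gpx1, a glutathione peroxidase, rose by 0.96 in Ova and 1.46 in IC, Gss, which completes glutathione synthesis, by 0.86 and 0.67, and Gsto1, a glutathione transferase, by 0.89 in IC. Gsr, which regenerates reduced glutathione, fell by 0.57 and 0.50. Of 11 genes for thioredoxins, peroxiredoxins and linked proteins, 1 rose in Ova (Sesn2, a sestrin), and 2 rose and 1 fell in IC. The stress-induced Sesn2 went from 7.88 to 22.1 CPM in Ova and from 9.22 to 27.6 in IC (1.52 and 1.58), Prdx1 rose by 0.51 in IC, and Txnl1 fell by 0.43 there.

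**Figure D4:**
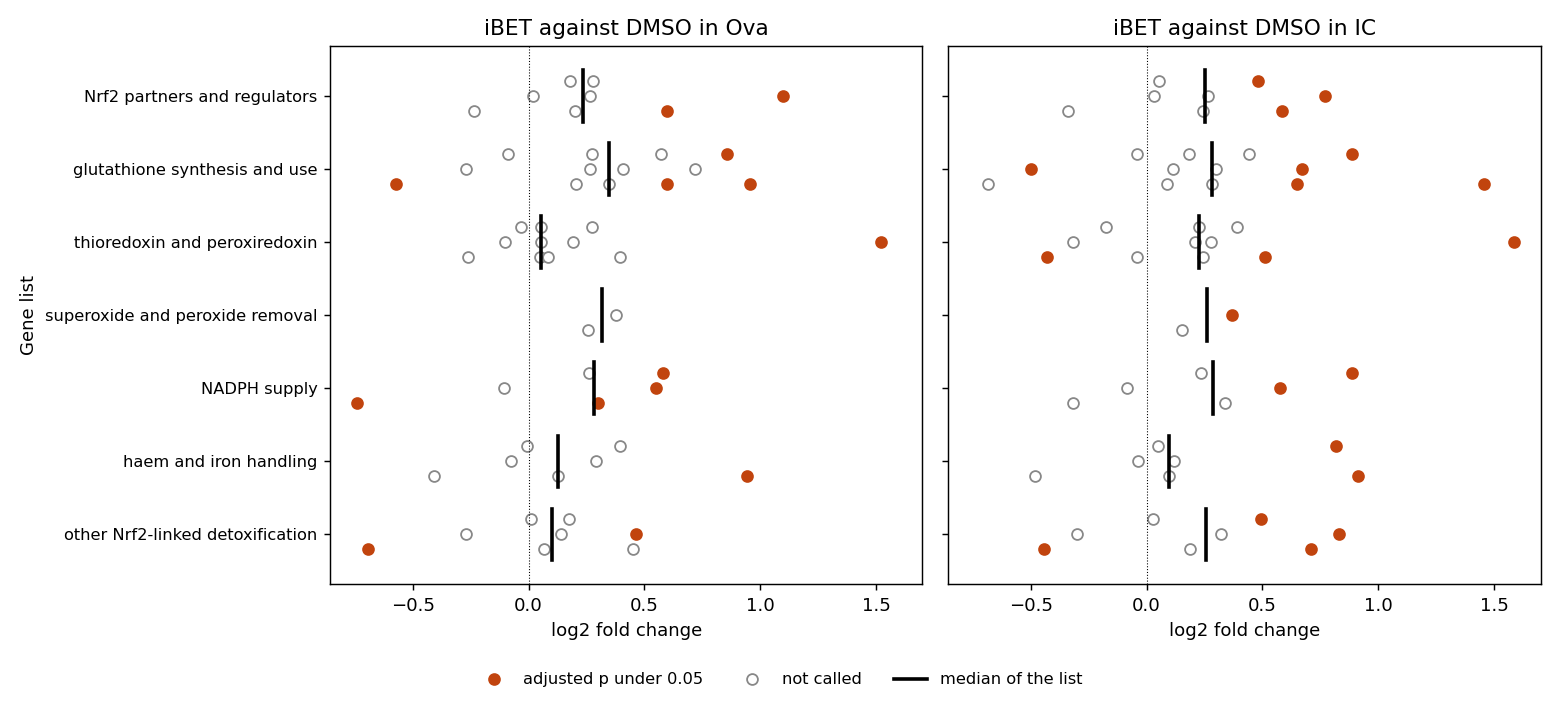
Log2 fold change with iBET of the 55 tested genes of the 7 related lists, in Ova (left) and in IC (right). Each point is 1 gene, filled points had an adjusted p under 0.05, and vertical bars are list medians, which lie between 0.055 and 0.35; the vertical offset of points within a list carries no meaning.

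Of 6 genes for NADPH supply and the pentose phosphate pathway, G6pdx, Tkt and Idh1 rose in Ova (0.55, 0.30 and 0.58) and Me1 fell by 0.74. In IC, G6pdx and Idh1 rose (0.58 and 0.89). Of 7 genes for haem and iron, Ftl1, the ferritin light chain, rose in both (0.94 and 0.82), and the iron exporter Slc40a1 rose in IC (0.91). Of 8 further genes tied to detoxification, Cbr1 rose in both (0.46 and 0.49), Ephx1 (0.83) and Osgin1 (0.71) rose in IC, and Nqo2 fell by 0.69 and 0.44. Of 2 tested genes for superoxide and peroxide removal, Cat rose in IC (0.37, adjusted p 0.0207), and none passed in Ova.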

How the data were processed

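Total RNA from 12 BMDM cultures was made into libraries with a SMARTer pico kit. The authors trimmed reads with Trim Galore, aligned them to mm10 with HISAT2 and assigned them with featureCounts (versions, annotation and strand setting are not given in the sources used here). They deposited raw counts per gene symbol. A second deposited table held normalized signal, which equalled counts divided by DESeq2 size factors (largest relative gap 4.89e-15) and served as an alternative.

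Counts were fitted in edgeR 4.0.16 (R 4.3.3): filterByExpr with a minimum count of 10, TMM, and a robust quasi-likelihood model with 1 term per group over all 12 libraries. Two-sided p-values were corrected over the 11468 genes by the Benjamini-Hochberg method, with calls at an adjusted p under 0.05. SE is the absolute log2 fold change over the square root of F. CPM are TMM-normalized, and each mouse's change is the difference of its log2 CPM (prior count 2). Alternatives used DESeq2 1.42.0, limma 3.58.1 and sva 3.50.0. The pipeline was tested on simulated data.

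The labels name the mouse (A, B or C) of each library, so libraries of the groups are matched by animal. The main fit and the permutation tests of ratios did not use this matching. It entered only each mouse's change and the fits with mouse as a block. Deviations of same-mouse libraries from their group means correlated at -0.07 to 0.54 (median 0.26, over 0.1 in 12 of 18 pairs). The median was -0.13 for 36 pairs of different mice. That value is largely set by the same-mouse one, since deviations within a group cancel, so it is no independent comparison.

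The named genes were the 10 members, the called genes of each list with the largest rises and falls (at most 3 each per iBET comparison), any list gene called with IC, and the nearest profiles. Members and lists were chosen with earlier results of these data known, and 1 macrophage marker is not reported here.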

Additional observations from a re-analysis of the deposited data

Results flagged for a closer look

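Gclm drew attention because its difference between IC and Ova had opposite signs in the 2 arms in every mouse. In DMSO the IC change was -0.32, -0.29 and -0.13 on the log2 scale in mice A, B and C, and in iBET it was 0.31, 0.27 and 0.33. The interaction was 0.57 (SE 0.34) with an unadjusted p of 0.123 and an adjusted p of 1.00. The fit with a term for each mouse gave 0.56, an unadjusted p of 0.00204 and an adjusted p of 1.00, so it did not pass over all genes in either fit.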

How the results depend on the processing

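In all alternatives that kept the 12 libraries or left out 1, Nfe2l2, Hmox1, Gclc, Srxn1 and Txnrd1 remained called with iBET in both settings; Txnrd1 lost its call only without mouse B or C. The comparisons with IC were less stable. Over all genes, IC against Ova called 140 genes in DMSO and 40 in iBET, which became 268 and 113 with DESeq2, 270 and 227 with voom and sample weights, and 5 and 99 with only the compared groups fitted. DESeq2 also gave 4 interaction calls. With mouse as a replicate block the counts were 315 and 85 in edgeR and 427 and 177 in DESeq2, which gave 6 for the interaction. Of the 10 genes, those called with IC in iBET then numbered 2 in edgeR and 5 in DESeq2, and 2 with DESeq2 or voom without the block. Those called with IC in DMSO numbered 1 with at least 10 counts in every library, where Slc7a11 could not be tested, and 0 with only the compared groups fitted. The block changed no other edgeR call than those given for Gclm and Srxn1. With iBET in Ova, Keap1, Nqo1, Gclm and Slc7a11 were not called in the main fit. Over all alternatives, including those without a library or mouse, values of these genes were called with the same sign 5 times. Those of Keap1 and Slc7a11 without iBET Ova of mouse C, given above, are among them.

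Apart from fits without a library or mouse, the sign turned for Nqo1 and, with iBET in Ova, for Gclm, and the cause was not tested. Nqo1 with iBET in Ova was 0.090 and 0.070 with the replicate block in edgeR and DESeq2, 0.028 with 1 surrogate variable and 0.33 on the normalized table. It was -0.13 with voom in IC. With IC in DMSO it was 0.0064 with the DESeq2 block and 0.28 on the normalized table, and its interaction was -0.039, -0.047, -0.060 and -0.30 (edgeR block, DESeq2 block, voom, normalized table). Gclm with iBET in Ova was -0.0051 with only the compared groups and -0.074 with voom. In fits without 1 library or mouse, Nqo1 spanned -0.24 to 0.20 (iBET in Ova), -0.11 to 0.28 (iBET in IC), -0.28 to 0.10 (IC in DMSO), -0.17 to 0.20 (IC in iBET) and -0.13 to 0.32 (interaction). Gclm with iBET in Ova spanned -0.16 to 0.18, Gclc with IC in DMSO -0.065 to 0.091, and Nfe2l2 with IC in iBET -0.19 to 0.11. The interaction spanned -0.21 to 0.043 for Nfe2l2, -0.0058 to 0.25 for Hmox1 and -0.039 to 0.18 for Txnrd1. None of these values was called in the main comparison.

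Without 1 library, those of the 10 genes that were called numbered 6 to 8 with iBET in Ova and in IC, 1 to 2 with IC in DMSO, 0 to 1 with IC in iBET and 0 for the interaction. All genes called numbered 2681 to 3899, 3114 to 4469, 45 to 123, 12 to 56 and 0 to 1. Without 1 mouse, the 10 genes gave 5 to 6, 5 to 7, 0 to 3, 0 to 3 and 0, and all genes 1310 to 3858, 1769 to 3852, 0 to 159, 0 to 305 and 0, with the lowest counts over all genes without mouse B.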
